A study of Mus musculus with 8 samples.

Results

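Collagens are the main structural proteins of the lung's extracellular matrix, and the genes described here encode their chains. The members were all genes of the array annotation whose single symbol follows the pattern of a collagen alpha chain, such as Col1a1 or Col12a1. The rule found 44 genes among 19937 named genes, and it used no measured value beyond picking the brightest probe of a gene. Of the 44 genes, 42 had 1 probe and 2, Col6a5 and Col6a6, had 2 probes. The genes lie on 15 chromosomes and were sorted into 9 classes by the structure their chains build.

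RNA was taken from whole lungs of mice that had received mepenzolate or vehicle, and 7 h or 25 h passed before collection. Mepenzolate is a blocker of muscarinic acetylcholine receptors and was given in PBS into the trachea by micropipette, under chloral hydrate at 500 mg/kg. The 4 groups (vehicle 7 h, mepenzolate 7 h, vehicle 25 h and mepenzolate 25 h) held 2 Affymetrix arrays each, 8 in all. The study asked how mepenzolate lowers inflammation and oxidative stress, and it examined gene sets at 25 h. Strain, age, sex and any emphysema-inducing treatment of these mice were not given in the sources used here. No source used here says whether each array is a different mouse. A p-value therefore need not reflect variation between mice. It rests on how far arrays of the same group lay apart, pooled over the 4 groups and moderated by the spread of all genes tested. That spread can include technical variation.

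Each collagen molecule is a triple helix of 3 alpha chains, and the chains are secreted mostly by fibroblasts, smooth muscle and, for basement membranes, by epithelium and endothelium. Prolyl and lysyl hydroxylases modify the chains in the endoplasmic reticulum, chaperones guard their folding, proteinases trim their ends outside the cell, and lysyl oxidases cross-link the finished polymers. In lung, fibrils of types I and III give tensile strength to airway walls, vessels and septa, while type IV networks form the sheet between alveolar epithelium and capillary. Collagen protein turns over slowly, and the arrays measured messenger RNA only. In RNA of a whole organ, fewer cells of a type and less RNA per cell cannot be told apart.

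The values were log2 expression levels, on which a difference of 1 is a 2-fold change. They ran from 2.00 to 13.98 over all probes, with array medians of 6.70 to 6.77. Replicate arrays correlated at r = 0.988 to 0.993 across probes, the same range as arrays of different groups. The alveolar markers Sftpc (13.49 to 13.56) and Ager (12.30 to 12.49) were high on all 8 arrays. The SD of replicate differences was lowest in the vehicle lungs at 25 h (0.158) and highest in the mepenzolate lungs at 7 h (0.246).

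No collagen gene passed an adjusted p of 0.05 in any of 5 comparisons, by limma with Benjamini-Hochberg adjustment over the 14953 genes bright enough to be tested. Of the 44 collagen genes 43 were tested. Col19a1, a fibril-associated chain, was the 1 gene under the limit of log2 5.93, with levels from 5.75 to 5.97. Over all genes the share called was 0% for mepenzolate against vehicle at 7 h, 0% at 25 h, 0% for both times averaged, 0% for the difference of the mepenzolate effect between times and 0.221% (33 genes) for 25 h against 7 h. An unadjusted p under 0.05 was reached by 2 collagen genes at 7 h (2.39% of all genes), 2 at 25 h (4.01%) and 2 for both times averaged (3.77%). It was reached by 2 for the difference of the effect (2.68%) and by 7 for 25 h against 7 h (8.97%).

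The collagen genes varied about as much between replicate arrays as other genes did. Their SD within groups had a median of 0.106, against 0.1 for all genes tested, and ran from 0.03 in Col4a4 to 0.318 in Col6a5. The range of a collagen gene over the 8 arrays had a median of 0.33, against 0.31 for all genes, with Col4a4 (0.06) and Col6a5 (1.26) at the ends.

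RefSeq promoter windows (GRCm38.p6) were at hand for 35 of the 44 genes, Col12a1 not among them. Windows of 5 genes described below are shown, and none of these genes passed in any comparison. Col1a2 and Col3a1 encode the fibril chains of types I and III, Col8a1 stood higher at 25 h than at 7 h, and Col4a1 and Col4a2 stood lower together. For Col1a2 (chr6:4505368-4505617, plus strand), Col3a1 (chr1:45311288-45311537, plus strand) and Col8a1 (chr16:57754738-57754987, minus strand) the 250 bases before the annotated start are given. Capitals mark the CCAAT box (CCAAT or its complement ATTGG), the GC box (GGGCGG or CCGCCC) and the TATA box (TATAAA or TTTATA).
Col1a2: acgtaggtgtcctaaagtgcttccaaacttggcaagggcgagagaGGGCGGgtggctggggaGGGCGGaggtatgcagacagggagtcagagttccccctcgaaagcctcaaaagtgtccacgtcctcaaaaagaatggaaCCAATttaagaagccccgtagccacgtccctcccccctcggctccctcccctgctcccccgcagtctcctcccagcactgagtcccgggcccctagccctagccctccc
Col3a1: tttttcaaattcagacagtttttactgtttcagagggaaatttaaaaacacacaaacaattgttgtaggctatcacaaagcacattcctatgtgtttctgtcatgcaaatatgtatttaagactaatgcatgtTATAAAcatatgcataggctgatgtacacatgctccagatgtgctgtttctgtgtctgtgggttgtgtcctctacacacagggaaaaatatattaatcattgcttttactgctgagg
Col8a1: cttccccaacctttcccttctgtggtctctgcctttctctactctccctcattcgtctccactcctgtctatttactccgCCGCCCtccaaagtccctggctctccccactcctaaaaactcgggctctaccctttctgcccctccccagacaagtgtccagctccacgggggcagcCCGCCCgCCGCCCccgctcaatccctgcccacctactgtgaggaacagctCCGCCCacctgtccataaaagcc
The Col1a2 window held 1 CCAAT box, 109 bases before the start, and 2 GC boxes, and 62.0% of its bases were G or C. The Col3a1 window held neither, but 1 TATA box, 117 bases before the start, in a sequence of 35.2% G and C. The Col8a1 window held 4 GC boxes, all on the opposite strand, and the nearest lay 23 bases before the start.

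Col4a1 and Col4a2 stand head to head on chromosome 8, with annotated starts 21 bases apart on opposite strands and gene spans that overlap by 85 bases. Each window therefore lies inside the partner gene, and only the 30 bases around the CCAAT box are shown, at chr8:11312954-11312983 (minus strand) for Col4a1 and chr8:11312761-11312790 (plus strand) for Col4a2, with the box in capitals.
Col4a1: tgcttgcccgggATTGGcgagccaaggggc
Col4a2: ccgaggagctccCCAATttgttggcgctgc
The box lay 145 bases before the Col4a1 start and 32 bases before the Col4a2 start. Their windows were 74.4% and 73.6% G and C.

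Over the 38 collagen windows (some genes have several starts), searched on both strands, the CCAAT box was present in 34.2%, against 33.9% of the 32841 windows of all genes of the same length. The TATA box was in 13.2% against 12.4%. The GC box was in 57.9% of the collagen windows and in 32.7% of all windows, and the median G and C content was 59.0% against 52.4%. A match of these short words is a description of the sequence and not evidence of a bound factor.

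Chains of the fibril-forming class differed little between mepenzolate and vehicle. Col1a1 and Col1a2 encode the 2 chains of type I collagen, the main fibril of airway and vessel walls, and Col3a1 the chain of type III, its partner in compliant tissue. Col1a1 read 10.76 and 10.83 in vehicle and 10.77 and 10.75 in mepenzolate lungs at 7 h, and 10.73 and 10.59 against 10.75 and 10.60 at 25 h. Col1a2 read 10.30 and 10.41 against 10.33 and 10.34 at 7 h, and 10.35 and 10.25 against 10.32 and 10.17 at 25 h. Col3a1 read 9.93 and 10.01 against 10.05 and 9.87 at 7 h, and 9.88 and 9.94 against 10.05 and 9.83 at 25 h. The drug and vehicle arrays overlapped for all 3 genes at both times. At 25 h the log2 difference, mepenzolate minus vehicle, was 0.02 ± 0.09 (SE, limma) for Col1a1, -0.05 ± 0.09 for Col1a2 and 0.03 ± 0.10 for Col3a1. Their 95% intervals ran from -0.19 to 0.22, from -0.26 to 0.15 and from -0.20 to 0.27, so larger shifts than these in either direction lie outside them. The 3 genes also lay a little lower at 25 h than at 7 h, by -0.11 ± 0.06, -0.07 ± 0.06 and -0.04 ± 0.07. Only in Col1a1 did the 4 late arrays all lie under the 4 early ones, and there the nearest early and late arrays both read 10.75 after rounding.

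**Figure D1:**
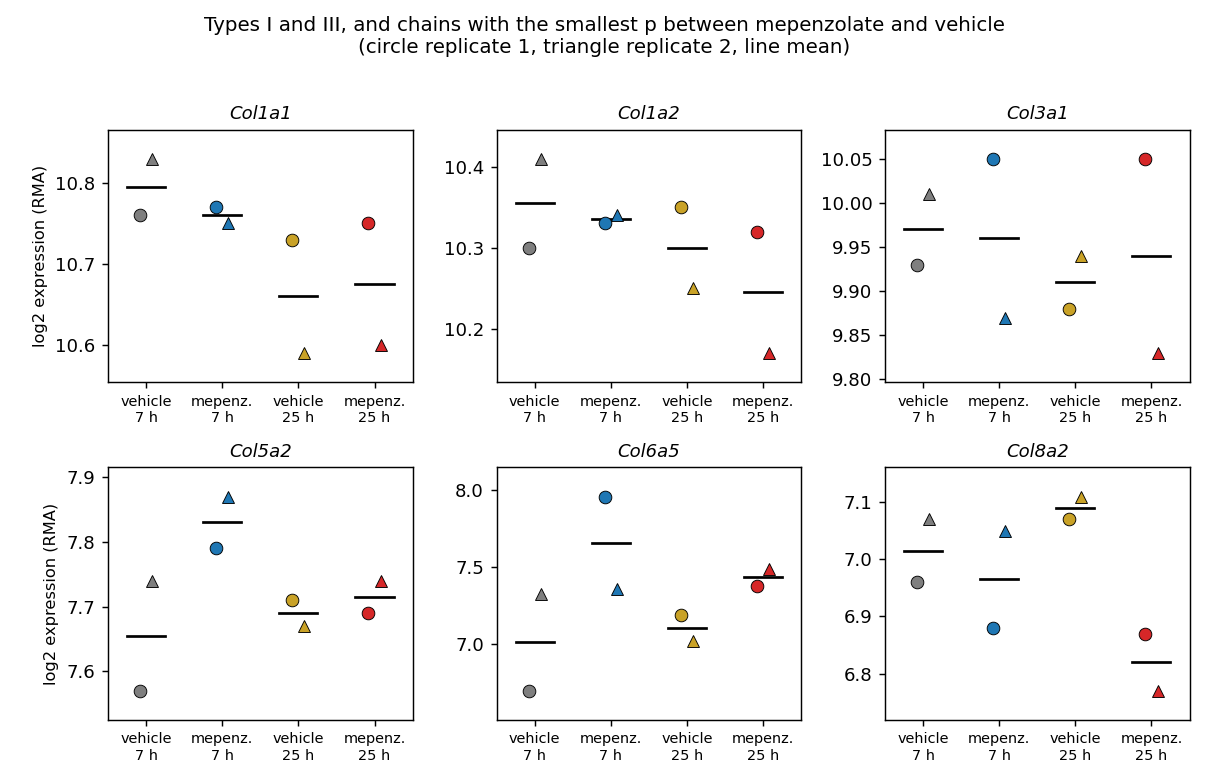
Log2 expression of Col1a1, Col1a2, Col3a1, Col5a2, Col6a5 and Col8a2 on each array, by treatment and time, with circles for replicate 1, triangles for replicate 2 and a line for the mean of each group of 2; each panel has its own axis. The type I and III chains overlap between treatments, while Col6a5 spans 6.70 to 7.96 and Col8a2 is lowest in the mepenzolate lungs at 25 h (6.87 and 6.77).

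Type V chains join type I fibrils and set their diameter. Of these, Col5a2 was the third of the collagen genes by p at 7 h, with 7.57 and 7.74 in vehicle and 7.79 and 7.87 in mepenzolate lungs. The drug arrays lay above the vehicle arrays there (0.18 ± 0.09, adjusted p = 1; 0.094 without the first vehicle array), but at 25 h they read 7.69 and 7.74 against 7.71 and 7.67 and overlapped. Col5a1 and Col5a3 differed by 0.05 ± 0.08 and -0.01 ± 0.10 at 7 h and by -0.05 ± 0.08 and -0.14 ± 0.10 at 25 h. Col24a1 and Col27a1 are fibrillar chains best known from developing bone and cartilage. Col24a1 read 6.62 and 6.67 against 6.51 and 6.68 at 7 h, and 6.83 and 6.64 against 6.51 and 6.61 at 25 h. At 25 h both of its drug arrays lay lower (-0.18 ± 0.10, adjusted p = 0.979), as did those of Col27a1 (-0.18 ± 0.12, adjusted p = 0.979). Without the first vehicle array at 25 h the Col24a1 difference was -0.084, and without the second -0.27. Over the 11 fibrillar genes 3 stood higher and 8 lower with mepenzolate at 7 h (median -0.018), and 4 higher and 7 lower at 25 h (median -0.055).

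Type IV chains build the basement membrane network. Col4a1 and Col4a2, which form the heterotrimer present in nearly all basement membranes, were the second and the third collagen gene by p between the times. At 7 h Col4a1 read 9.81 and 9.82 in vehicle and 9.93 and 9.86 in mepenzolate lungs, and at 25 h 9.59 and 9.70 against 9.71 and 9.53. Col4a2 read 10.24 and 10.25 against 10.40 and 10.28 at 7 h, and 10.01 and 10.14 against 10.16 and 9.99 at 25 h. All 4 late arrays lay under all 4 early arrays for both genes. The log2 difference, 25 h minus 7 h over both treatments, was -0.23 ± 0.06 for Col4a1 (limma, adjusted p = 0.267) and -0.21 ± 0.07 for Col4a2 (adjusted p = 0.326), and neither passed. With mepenzolate the pair differed from vehicle by 0.08 ± 0.09 and 0.09 ± 0.09 at 7 h, where the arrays did not overlap, and by -0.02 ± 0.09 and 0.00 ± 0.09 at 25 h, where they did.

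The other type IV chains did not follow that pair between the times. Col4a3, Col4a4 and Col4a5 form the network of the alveolar and glomerular basement membranes, and Col4a6 joins Col4a5 around smooth muscle. Col4a3 read 8.59, 8.62, 8.58 and 8.59 at 7 h and 8.56, 8.62, 8.50 and 8.67 at 25 h, the vehicle arrays first in each case. Col4a4 read 7.99, 8.0, 7.96 and 8.02 at 7 h and again 7.99, 8.0, 7.96 and 8.02 at 25 h. These were the narrowest values of the 44 genes. Col4a5 read 7.81, 7.96, 7.97 and 7.98 and then 7.90, 7.94, 7.92 and 7.85, and Col4a6 read 6.84, 6.94, 6.92 and 6.91 and then 6.92, 6.82, 6.93 and 6.94. The time difference of these 4 genes lay between -0.03 and 0.00. At 7 h both drug arrays of Col4a5 lay above its vehicle arrays, as in the pair, with the nearest at 7.97 and 7.96. Col4a3 and Col4a4 overlap by 114 bases at their heads, and Col4a5 and Col4a6 start 1343 bases apart on the X chromosome, so the head-to-head arrangement is shared by the 3 type IV pairs.

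Type VI chains form beaded filaments between cells and fibrils. Col6a1, Col6a2 and Col6a3 encode the chains of the common heterotrimer, and all 3 had lower means at 25 h than at 7 h (-0.12 ± 0.08, -0.11 ± 0.06 and -0.24 ± 0.08). Col6a3 read 9.55 and 9.66 in vehicle and 9.58 and 9.71 in mepenzolate lungs at 7 h, and 9.42 and 9.47 against 9.50 and 9.16 at 25 h. The 4 late arrays lay under the 4 early ones (limma, adjusted p = 0.424). The lowest value, 9.16, belonged to 1 mepenzolate array at 25 h, and without that array the difference was -0.15. With mepenzolate the 3 genes differed from vehicle by 0.00 to 0.08 at 7 h and by -0.12 to 0.07 at 25 h, all within their overlap.

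Col6a4, Col6a5 and Col6a6 are later-described type VI chains and lie in tandem on chromosome 9. Col6a4 read 6.11 and 6.32 against 6.27 and 6.55 at 7 h, and 6.66 and 6.72 against 6.39 and 6.58 at 25 h. It stood higher at 25 h over both treatments (0.27 ± 0.09, adjusted p = 0.345), although early and late arrays overlapped. The time difference was 0.47 ± 0.12 within vehicle lungs and 0.07 ± 0.12 within mepenzolate lungs. Its mepenzolate difference was 0.20 ± 0.12 at 7 h and -0.20 ± 0.12 at 25 h, and the difference between those effects was -0.40 ± 0.17 (limma, adjusted p = 1). Without replicate 2 of the mepenzolate arrays at 7 h it was -0.26.

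Col6a5 had the largest mepenzolate difference of the collagen genes at both times and the largest spread. It read 6.70 and 7.33 in vehicle and 7.96 and 7.36 in mepenzolate lungs at 7 h, and 7.19 and 7.02 against 7.38 and 7.49 at 25 h. All 4 drug arrays lay above all 4 vehicle arrays, as they did in 0.602% of all genes, though the nearest of them read 7.36 and 7.33. The difference was 0.64 ± 0.23 at 7 h (limma, adjusted p = 1), 0.32 ± 0.23 at 25 h (adjusted p = 0.979) and 0.48 ± 0.17 over both times (adjusted p = 0.999). Without the low vehicle array at 7 h the 7 h difference was 0.33, and without the other vehicle array 0.96. The second, dimmer probe of the gene read 6.15 and 7.33 against 8.43 and 7.18 at 7 h, and 6.05 and 5.93 against 7.32 and 7.49 at 25 h. On that probe the mean difference was 1.06 at 7 h and 1.41 at 25 h, and the 7 h arrays overlapped. The summed linear level of 5 mesothelial markers (Msln, Upk3b, Wt1, Upk1b and Lrrn4) was also higher in mepenzolate lungs, 964 to 1061 against 842 to 903 at 7 h and 1046 to 1158 against 827 to 852 at 25 h. Of the 5 markers 4 stood higher with mepenzolate at each time, and none passed. The part of the mesothelial markers in the Col6a5 result was not tested. The neighbouring Col6a6 differed by -0.04 ± 0.10 at 7 h and -0.10 ± 0.10 at 25 h, and its second probe by -0.04 and -0.14.

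Type VIII collagen is a short-chain network of vessel walls and of the corneal basement membrane, and its 2 chains stood apart. Col8a1 read 7.65 and 7.88 in vehicle and 8.01 and 7.95 in mepenzolate lungs at 7 h, and 8.0 and 8.05 against 8.23 and 8.02 at 25 h. The drug arrays lay above the vehicle arrays at 7 h (0.21 ± 0.11) and overlapped them at 25 h (0.10 ± 0.11), and over both times the difference was 0.16 ± 0.08 (limma, adjusted p = 0.999), or 0.10 without the first vehicle array at 7 h. The gene stood higher at 25 h than at 7 h by 0.21 ± 0.08 (adjusted p = 0.445), with overlap. Col8a2 read 6.96 and 7.07 against 6.88 and 7.05 at 7 h, and 7.07 and 7.11 against 6.87 and 6.77 at 25 h. Its drug arrays lay under the vehicle arrays at 25 h, by -0.27 ± 0.09 (limma, adjusted p = 0.979), and over both times the difference was -0.16 ± 0.06 (adjusted p = 0.999). The difference between its 2 effects was -0.22 ± 0.13, which did not pass (adjusted p = 1), and -0.13 without replicate 2 of the mepenzolate arrays at 7 h. Col7a1, the chain of the fibrils that anchor epithelium, read from 7.29 to 7.64 and differed by -0.02 ± 0.12 at 7 h and -0.03 ± 0.12 at 25 h.

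Col12a1 was the collagen gene with the smallest p between the times and for the difference of the mepenzolate effect. It encodes a fibril-associated chain with interrupted triple helices, which decorates type I fibrils in tissue under load, and lies at chr9:79598987-79721141 (GRCm38.p6). It read 7.89 and 7.95 in vehicle and 8.24 and 8.07 in mepenzolate lungs at 7 h, and 7.87 and 7.77 against 7.57 and 7.51 at 25 h. Of the 8 arrays, the highest 2 were the mepenzolate arrays at 7 h and the lowest 2 the mepenzolate arrays at 25 h. The mepenzolate difference was 0.24 ± 0.09 at 7 h (limma, adjusted p = 1) and -0.28 ± 0.09 at 25 h (adjusted p = 0.979). Without the higher of the 2 mepenzolate arrays at 7 h the 7 h difference was 0.15. The difference between the 2 effects was -0.52 ± 0.12, with a 95% interval from -0.81 to -0.23 (adjusted p = 1). The interval is for this gene alone and makes no allowance for its choice by the smallest p. Averaged over the times the difference was -0.02 ± 0.06. Drug and vehicle arrays that separate in opposite directions at the 2 times were found for 1 collagen gene, this one, and for 3.52% of all genes.

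Over both treatments Col12a1 stood lower at 25 h than at 7 h by -0.36 ± 0.06, 0.78-fold, and all 4 late arrays lay under all 4 early arrays. The adjusted p was 0.0913 by limma, above the threshold. It was under the threshold in 2 of the other settings, at 0.0452 when only genes at or above the median level were tested and at 0.0424 with an intensity trend and robust variance estimation. It ranged up to 0.436 when 1 vehicle array at 25 h was left out. Within the mepenzolate lungs Col12a1 differed between the times by -0.62 ± 0.09 (adjusted p = 0.119), and within the vehicle lungs by -0.10 ± 0.09 (adjusted p = 0.966). The test of that gap is the same contrast as the difference of the mepenzolate effect given above.

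**Figure D2:**
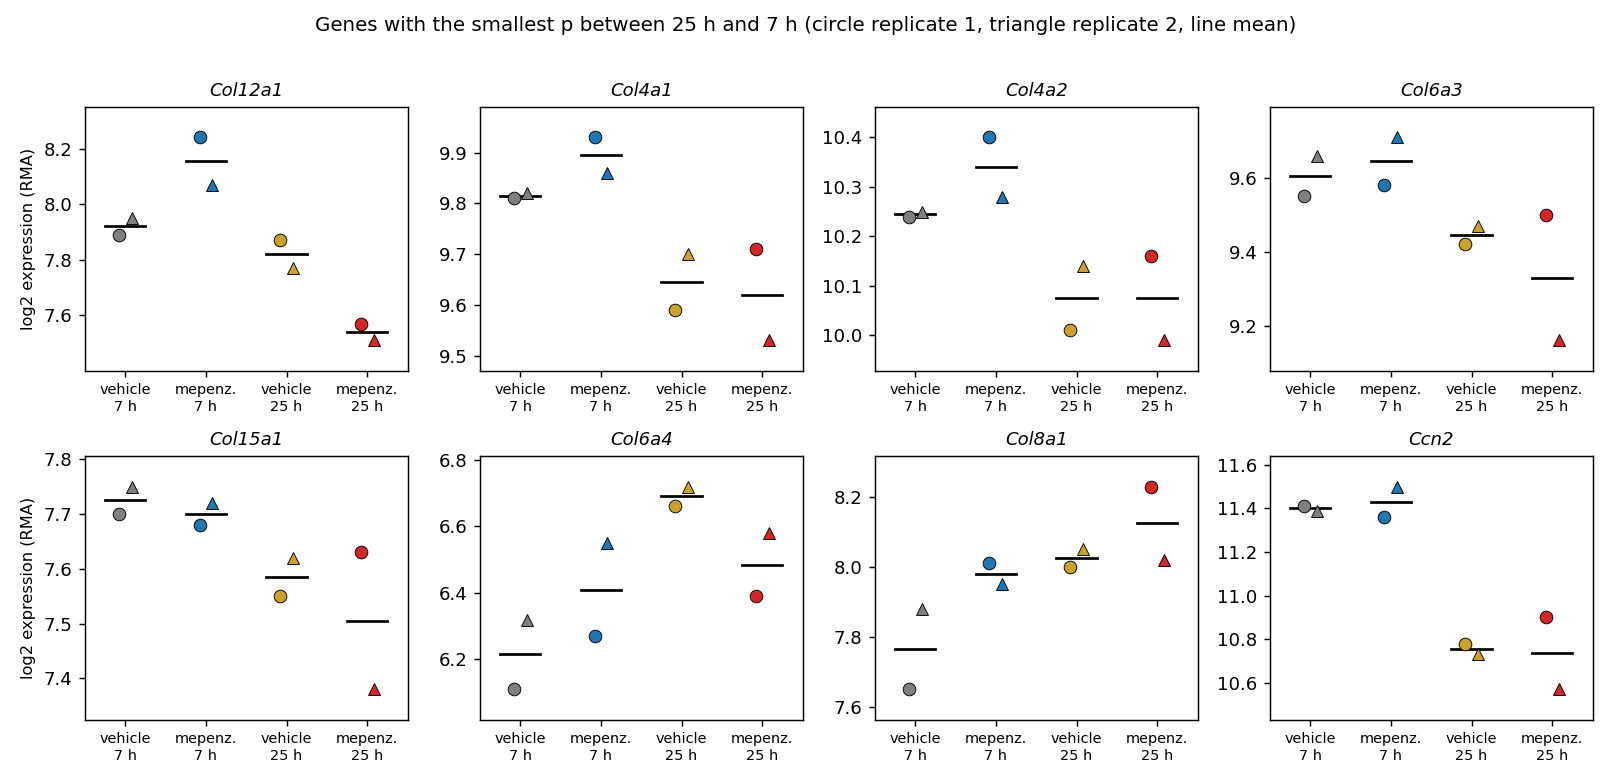
Log2 expression of the 7 collagen genes with an unadjusted p under 0.05 between 25 h and 7 h, and of Ccn2, on each array by treatment and time, with circles for replicate 1, triangles for replicate 2 and a line for the mean of each group of 2; each panel has its own axis. Col12a1, Col4a1, Col4a2, Col6a3 and Col15a1 lie lower at 25 h on all 4 arrays, Col6a4 and Col8a1 overlap between times, and Ccn2 shows the widest gap (11.36 to 11.50 against 10.57 to 10.90).

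The remaining fibril-associated chains showed no difference of that size. Col14a1, the close relative of Col12a1, read from 8.50 to 8.94 and differed by -0.07 ± 0.12 at 7 h, 0.09 ± 0.12 at 25 h and 0.08 ± 0.09 between the times. Col16a1, Col20a1 and Col22a1 differed between mepenzolate and vehicle by -0.01 to 0.09 at 7 h and by -0.07 to 0.05 at 25 h. The 8 tested genes of the class split 4 higher and 4 lower at 7 h (median 0.006) and 2 higher and 6 lower at 25 h (median -0.047).

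Among chains of cell surfaces and basement membrane zones, Col15a1 stood lower at the late time. It encodes a multiplexin, a proteoglycan-type collagen of the zone under capillaries and muscle, and read 7.70 and 7.75 against 7.68 and 7.72 at 7 h and 7.55 and 7.62 against 7.63 and 7.38 at 25 h. The 4 late arrays lay under the early ones (-0.17 ± 0.07, limma, adjusted p = 0.524), by -0.10 without replicate 2 of the mepenzolate arrays at 25 h. The other multiplexin, Col18a1, the source of endostatin, differed by -0.03 ± 0.07 between the times. The 4 transmembrane chains (Col13a1, Col17a1, Col23a1 and Col25a1) all had negative mepenzolate differences at 25 h, from -0.17 to -0.04, whereas 3 of 4 were positive at 7 h. Of these, the arrays separated for Col13a1 at 7 h (0.09 ± 0.08) and for Col17a1, a hemidesmosome protein of basal epithelium, at 25 h (-0.17 ± 0.11, adjusted p = 0.979). Col26a1 and Col28a1, which fit no larger class, differed by 0.05 ± 0.09 and 0.03 ± 0.12 at 7 h and by -0.11 ± 0.09 and -0.10 ± 0.12 at 25 h.

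**Figure D3:**
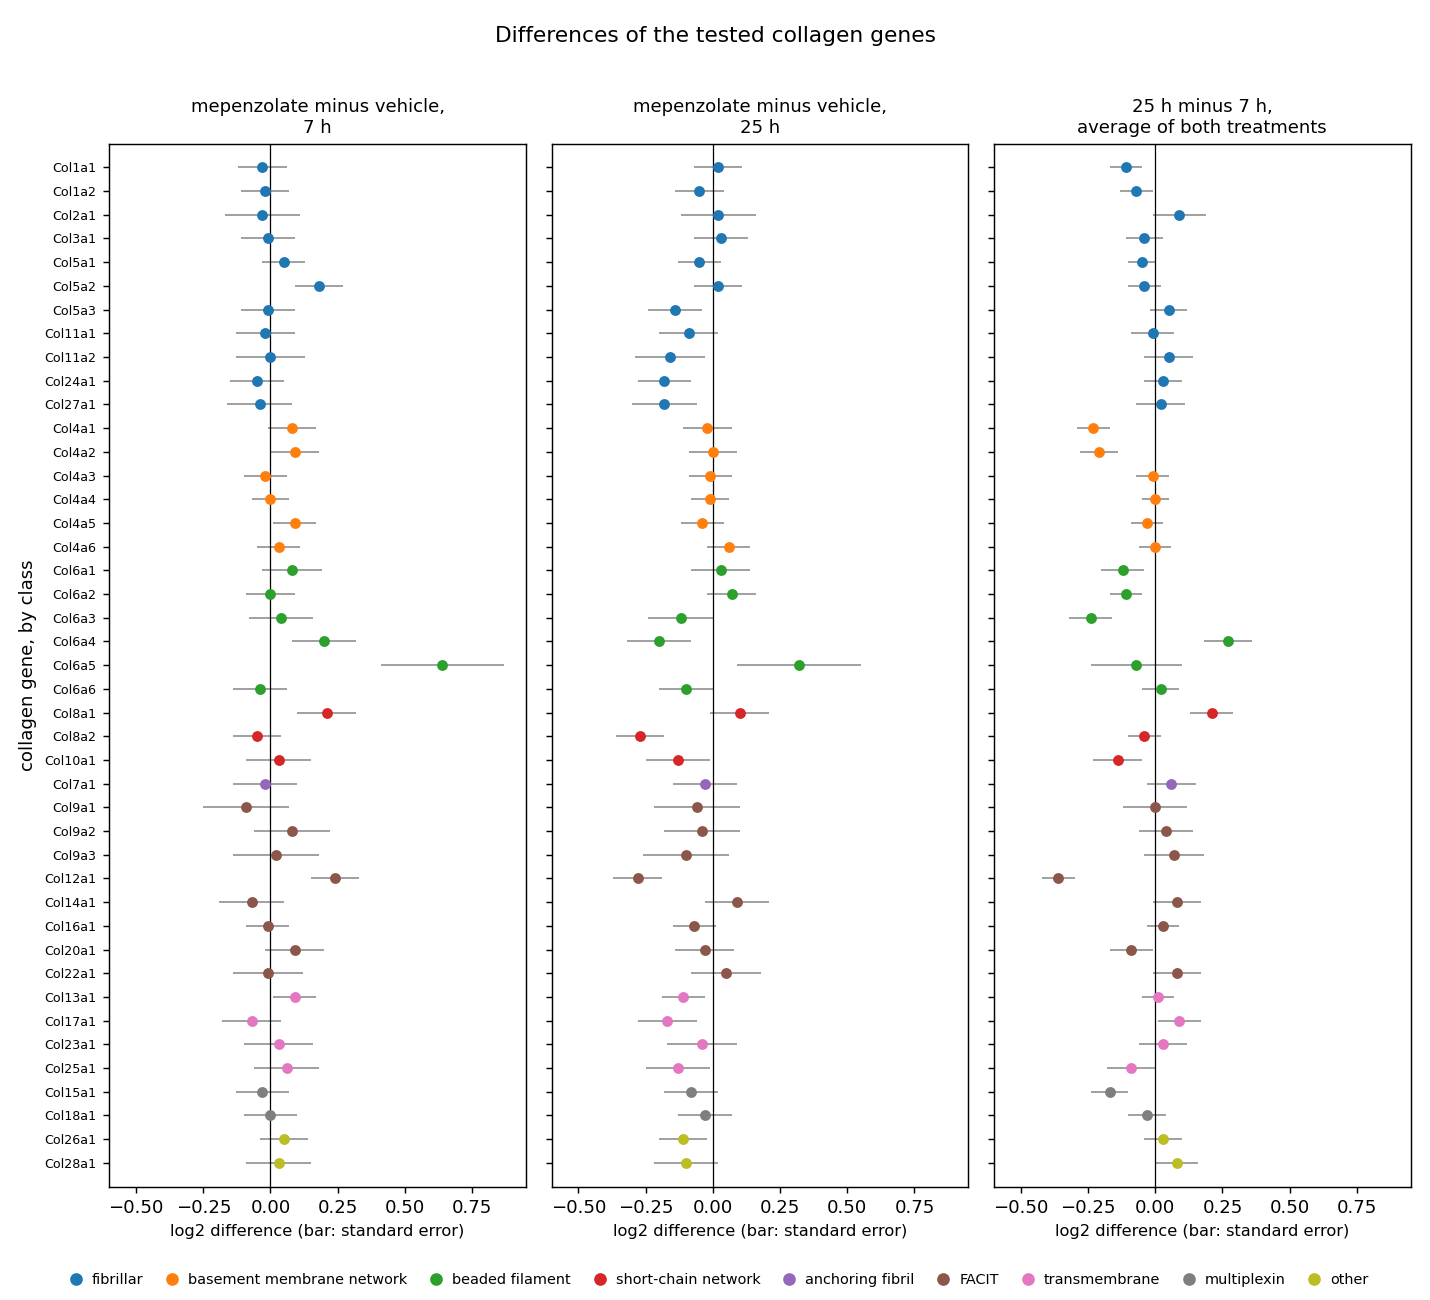
Log2 difference of each of the 43 tested collagen genes in 3 comparisons, coloured by class, with bars for the standard error from limma. Col6a5 (0.64) and Col12a1 (0.24) lie farthest right at 7 h, Col12a1 (-0.28) and Col8a2 (-0.27) farthest left at 25 h, and Col12a1 (-0.36), Col6a3 (-0.24), Col4a1 (-0.23) and Col4a2 (-0.21) farthest left between the times.

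Counted over the 43 tested genes, the mepenzolate difference was above 0 in 23 genes at 7 h (43.6% of all genes tested were above 0) and in 12 genes at 25 h (41.3% of all). The medians were 0.003 at 7 h, against -0.013 for all genes, and -0.046 at 25 h, against -0.023. Drug and vehicle arrays did not overlap in 8 collagen genes at 7 h, all higher with mepenzolate, where 23.7% of all genes did not overlap (8.26% higher and 15.5% lower). At 25 h they did not overlap in 11 collagen genes, 2 higher and 9 lower, where 36.6% of all genes did not overlap (14.2% higher and 22.4% lower). As shares with both directions together, 18.6% of the collagen genes separated at 7 h and 25.6% at 25 h, both under the share of all genes. By direction, 18.6% separated higher at 7 h, above the 8.26% of all genes, and 0% lower, under the 15.5%. At 25 h 4.65% separated higher and 20.9% lower, both under the shares of all genes. The difference of the effect, 25 h minus 7 h, was negative in 34 of 43 genes and above 0 in 9 (median -0.11), where 48.3% of all genes were above 0. It uses the same arrays as the separate counts.

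Between the times 22 of the 43 genes were lower and 21 higher at 25 h (median -0.002), close to all genes (50.7% higher, median 0.001). The arrays of the times did not overlap in 6 collagen genes (Col12a1, Col15a1, Col1a1, Col4a1, Col4a2 and Col6a3), all lower at 25 h, which is 14% of those tested against 6.69% of all genes (2.55% higher and 4.15% lower). In Col1a1 the gap was lost on rounding, with 10.75 on the nearest array of each time. At an unadjusted p under 0.05 stood 5 lower collagen genes, where 4.95% of all genes were lower, and 2 higher ones, where 4.03% were higher. Both directions together were 16.3% of the collagen genes. The time after dosing and the clock hour of collection cannot be told apart with these labels.

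Markers of collagen-producing cells mostly had lower means at 25 h, where 50.7% of all genes were higher. The summed linear level of 7 lung fibroblast markers was 19939 to 20312 on the 4 arrays at 7 h. At 25 h it was 18566 to 19164, without overlap. Of the 7 markers 5 were lower, and Mfap4 (-0.35 ± 0.06) and Npnt (-0.14 ± 0.06) had an unadjusted p under 0.05 by limma. Tcf21 (-0.12 ± 0.06), Fgf10 (-0.07 ± 0.05) and Inmt (-0.02 ± 0.05) were lower by less. Pdgfra (0.02 ± 0.05) and Meox2 (0.09 ± 0.08) were higher. The sum without Mfap4 and Npnt was not computed, so the lower sum need not hold for fibroblast markers in general. The 7 smooth muscle markers all had lower means at 25 h (median -0.13), but their sums overlapped, 7821 to 9218 against 6796 to 8746. The 6 pericyte markers split 5 lower and 1 higher, and the 7 endothelial markers 5 lower and 2 higher. Immune cell markers had higher sums at 25 h. Of 5 listed, 4 matched (Ptprc, Cd3e, Itgam and Marco), and their sum was 1415 to 1512 on the 4 arrays at 7 h and 1614 to 1931 at 25 h, without overlap. Their means were higher at 25 h for Ptprc (0.37 ± 0.07, limma, adjusted p = 0.0996), Cd3e (0.30 ± 0.07, adjusted p = 0.147) and Itgam (0.09 ± 0.09), and lower for Marco (-0.16 ± 0.07). No gene of these 5 lists passed, and their part in the lower values of the named collagen genes was not tested.

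Most listed genes that make, fold and trim collagen chains had lower means at 25 h. The list came from general knowledge of the pathway, but it was chosen with earlier results of these data known. Of 91 listed pathway genes 85 matched and 83 were tested. Among 23 enzymes and chaperones of biosynthesis 19 were lower and 4 higher at 25 h (median -0.109), 6 of them lower at an unadjusted p under 0.05, and none passed. Of all genes tested 50.7% were higher and 4.95% were lower at that p. Serpinh1, the collagen chaperone HSP47, read 8.51, 8.72, 8.66 and 8.70 at 7 h and 8.31, 8.40, 8.27 and 8.17 at 25 h, the vehicle arrays first, so that every late array lay under every early one (-0.36 ± 0.07, limma, adjusted p = 0.107). The lysyl hydroxylase Plod1 (-0.31 ± 0.07, adjusted p = 0.144), the prolyl 4-hydroxylase subunits P4ha2 (-0.26 ± 0.05, adjusted p = 0.128) and P4ha1 (-0.17 ± 0.06, adjusted p = 0.374), and the prolyl 3-hydroxylase P3h1 (-0.24 ± 0.06, adjusted p = 0.204) separated in the same way. Such a separation, with every late array under every early one, was found in 4.15% of all genes tested. Among 13 basement membrane partners of type IV collagen, such as laminins and nidogens, 12 were lower and 1 higher (median -0.093), with Lamc1 (-0.15 ± 0.06), Nid1 (-0.20 ± 0.08) and Hspg2 (-0.16 ± 0.07) at an unadjusted p under 0.05. Fibril-associated proteins split 4 higher and 10 lower (median -0.055), the cross-linking oxidases 1 and 3 (-0.119) and the inducers of collagen expression 4 and 7 (-0.011). The collagenases and other proteinases split 3 and 5 (-0.027), and the collagen receptors 6 and 4 (0.022). Mmp14, a membrane-bound collagenase, stood higher at 25 h by 0.24 ± 0.08 without passing.

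Ccn2 was the 1 pathway gene that passed. It encodes connective tissue growth factor, a matricellular protein induced by TGF-beta and by mechanical load that promotes collagen expression. It read 11.41 and 11.39 in vehicle and 11.36 and 11.50 in mepenzolate lungs at 7 h, and 10.78 and 10.73 against 10.90 and 10.57 at 25 h. It fell by 0.67 ± 0.08 on the log2 scale (limma, adjusted p = 0.0223), to 0.63-fold. The call did not hold when any 1 of 6 arrays was left out: both vehicle arrays at 7 h, both at 25 h, replicate 2 of the mepenzolate arrays at 7 h or replicate 2 at 25 h (adjusted p 0.0533 to 0.143). With each of the 8 arrays left out in turn the Ccn2 difference stayed between -0.75 and -0.58. The -0.75 came without replicate 1 of the mepenzolate arrays at 25 h, which is not among those 6. On all arrays the difference was -0.64 ± 0.11 within vehicle and -0.69 ± 0.11 within mepenzolate lungs.

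With mepenzolate no pathway gene passed at either time. At 25 h the smallest p among the biosynthesis enzymes belonged to P4ha3, a prolyl 4-hydroxylase subunit, with 7.05 and 6.94 in vehicle and 6.65 and 6.30 in mepenzolate lungs (-0.52 ± 0.15, limma, adjusted p = 0.979). The procollagen N-proteinase Adamts14 (-0.25 ± 0.09) and the TGF-beta mediator Smad3 (-0.25 ± 0.09) also had drug arrays under the vehicle arrays, and the small proteoglycan Podn had them above (0.32 ± 0.14). Of all genes tested, 22.4% had the drug arrays under the vehicle arrays at 25 h and 14.2% had them above. The Podn difference was 0.11 without replicate 1 of the mepenzolate arrays at 25 h and 0.53 without replicate 2. The remaining named genes at 25 h, each at adjusted p = 0.979, were Lox (-0.27 ± 0.17) and Loxl3 (-0.09 ± 0.08) of the cross-linking oxidases, Prelp (-0.17 ± 0.09), Nid1 (-0.19 ± 0.11) and Hspg2 (-0.12 ± 0.09) of the matrix partners, the receptors Ddr2 (-0.15 ± 0.09) and Mrc2 (-0.15 ± 0.09), the proteinases Mmp8 (-0.19 ± 0.16) and Mmp9 (-0.43 ± 0.22), and the tendon factor Scx (-0.15 ± 0.08). Several of these were small without replicate 2 of the mepenzolate arrays at 25 h, such as Nid1 (-0.035), Mrc2 (-0.054), Ddr2 (-0.064), Prelp (-0.085) and Loxl3 (-0.036). At 7 h P4ha2 (-0.19 ± 0.08) was the 1 of the named genes with an unadjusted p under 0.05. The others there ranged from Colgalt2 (-0.29 ± 0.13), which adds sugars to collagen, to Mmp8 (0.24 ± 0.16), with Lox at 0.05 ± 0.17, Loxl3 at -0.07 ± 0.08, Ogn at 0.13 ± 0.07, Tnxb at 0.23 ± 0.14, Lamb1 at -0.09 ± 0.09, Lamb2 at -0.07 ± 0.08, Itga10 at 0.15 ± 0.09, Itga11 at -0.18 ± 0.12, Mmp13 at 0.12 ± 0.12, Tgfbr2 at -0.04 ± 0.08 and Scx at 0.07 ± 0.08. Leaving out 1 array brought Itga11 to -0.0034, Mmp13 to 0.0041 and Mmp8 to 0.032 at 7 h. Of the 29 differences of single pathway genes recomputed in this way, 16 moved by over 1.5-fold.

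Chains known from cartilage showed their widest differences between replicate arrays. Col2a1 is the main fibril chain of cartilage, Col11a1 and Col11a2 encode the chains that nucleate its fibrils, Col9a1, Col9a2 and Col9a3 those that coat them, and Col10a1 marks hypertrophic cartilage. Col2a1 read 7.47 and 7.63 in vehicle and 7.35 and 7.70 in mepenzolate lungs at 7 h, and 7.64 and 7.59 against 7.49 and 7.79 at 25 h. Replicate 2 lay above replicate 1 in both mepenzolate groups, by more than any difference between group means of this gene. Col9a1 read 6.52 and 6.64 against 6.26 and 6.72, and then 6.58 and 6.56 against 6.33 and 6.69. Col9a2 read 7.29 and 7.36 against 7.23 and 7.58, and then 7.51 and 7.32 against 7.24 and 7.52. Col9a3 read 7.29 and 7.40 against 7.11 and 7.62, and then 7.50 and 7.44 against 7.24 and 7.51. In all 3 the first mepenzolate array at 7 h was the lowest of the 8 and the second was the highest. That second array also stood apart in liver transcripts. Alb read 8.93 on it and 5.94 to 6.39 on the 7 others, and the 6 liver markers summed to 1013, against 371 to 426. The part of this array's liver signal in the cartilage chain values was not tested. Col11a1 read 6.93 and 6.92 against 6.80 and 7.00, and then 7.05 and 6.86 against 6.76 and 6.96. Col11a2 read 7.20 and 7.39 against 7.18 and 7.42, and then 7.45 and 7.40 against 7.13 and 7.42. Col10a1 read 5.94 and 6.09 against 5.88 and 6.23, and then 5.91 and 6.02 against 5.78 and 5.88, close to the limit for testing. The mepenzolate differences of the 7 genes ran from -0.09 to 0.08 at 7 h (4 higher, 3 lower) and from -0.16 to 0.02 at 25 h (1 higher, 6 lower).

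Replicate 2 exceeded replicate 1 in 7 of 7 cartilage chains in both mepenzolate groups, by a median of 0.351 at 7 h and 0.276 at 25 h. It did so in 6 of 7 in the vehicle lungs at 7 h (0.12) and in 1 of 7 at 25 h (-0.054). Of the 11 cartilage markers 7 (Acan, Cnmd, Epyc, Hapln1, Matn1, Matn3 and Ucma) were under the limit for testing on average, and the sum of all 11 was 978 to 1024 in the mepenzolate lungs at 7 h and 1063 to 1341 in the 6 other arrays. Of these markers Chad, chondroadherin, read 9.02 and 9.08 in vehicle and 8.95 and 8.52 in mepenzolate lungs at 7 h, and 9.52 and 8.87 against 9.35 and 9.24 at 25 h. Without Chad the sum was 528 to 611 in the mepenzolate lungs at 7 h, 551 to 603 in the vehicle lungs at 7 h, and 596 to 608 and 536 to 611 in vehicle and mepenzolate lungs at 25 h, so the groups overlapped. Over all 44 collagen genes replicate 2 was higher in 39 genes in vehicle at 7 h, 33 in mepenzolate at 7 h, 17 in vehicle at 25 h and 28 in mepenzolate at 25 h. Replicate differences also varied with level in all named genes, which were split by level into 4 bins of nearly equal gene number. In the mepenzolate lungs at 7 h the median replicate difference was 0.162, 0.121, -0.088 and -0.09 from the dimmest to the brightest bin. The collagen genes did not follow that slope throughout. In the third bin (20 collagen genes) their medians were 0.094 in the mepenzolate lungs at 7 h and 0.11 at 25 h, against -0.088 and -0.052 for all genes, and replicate 2 was higher in 85% and 70% of them, against 29.7% and 36.8%. In the brightest bin the 10 collagen genes had medians of -0.086 and -0.173 in the mepenzolate groups, on the side of all genes (-0.09 and -0.068), but of 0.076 in the vehicle lungs at 7 h, where all 10 were higher on replicate 2 and the median of all genes was -0.026. In the mepenzolate lungs at 25 h replicate 2 was lower in all 3 chains of types I and III (median -0.151), in all 3 common type VI chains (-0.218) and in both Col4a1 and Col4a2 (-0.173).

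**Figure D4:**
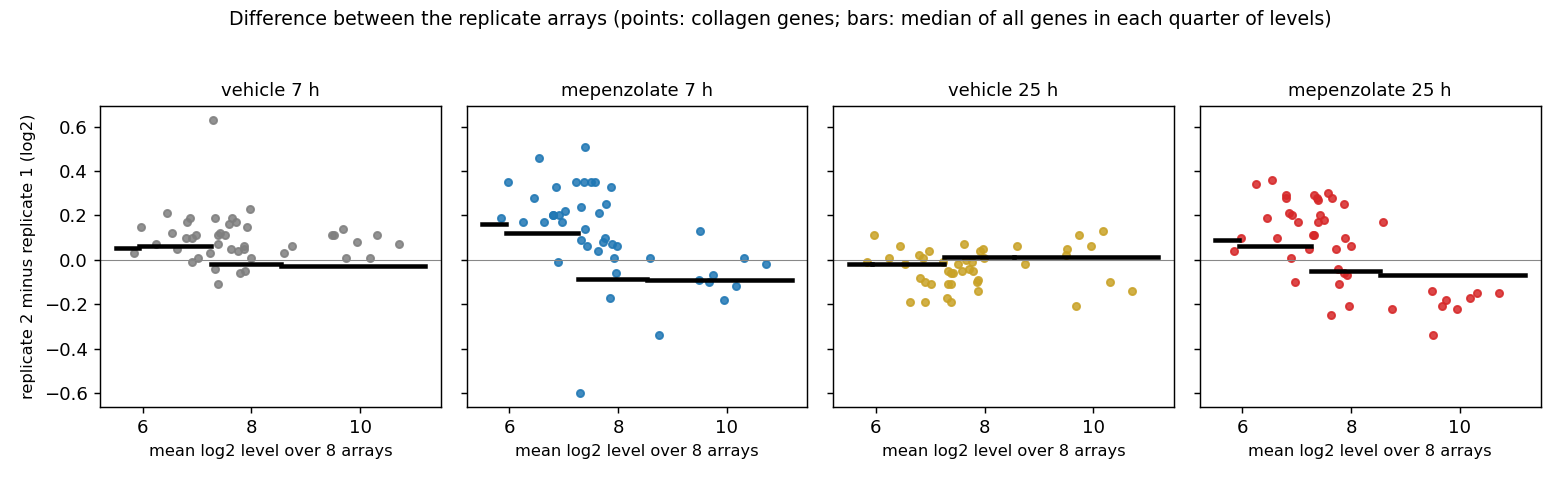
Difference between the 2 replicate arrays of each group, replicate 2 minus replicate 1 in log2 units, for the 44 collagen genes (points) against their mean level over the 8 arrays. Bars give the median of all named genes in each of 4 bins of level with nearly equal gene number. In the mepenzolate groups the bars run from above 0 in the dimmest bin to below it in the brightest (0.162 to -0.09 at 7 h). The collagen genes of the third bin lie mostly above 0 there, on the other side from their bar, and those of the brightest bin mostly below it.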

How the data were processed

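The authors deposited log2 expression values of 34760 probes on Affymetrix mouse arrays, which the RMA method (robust multi-array averaging) had produced, per the submitters' processing notes. The sources used here give no version. The method equalises intensity distributions between arrays and compresses differences of dim genes. In the platform annotation 1 symbol was given for 21640 probes and several for 1321, 11799 were unnamed, and the brightest of a gene's single-symbol probes was used. All 44 collagen genes matched RefSeq (GRCm38.p6) by Entrez identifier. Groups came from the sample labels. Limma 3.58.1 in R 4.3.3, with data.table at version 1.17.8, was fitted to the deposited values with 1 mean per group over all 8 arrays (4 residual and 4.09 prior degrees of freedom). Benjamini-Hochberg adjustment ran over the 14953 genes whose mean reached the 25th percentile. The number of arrays limits the precision. Errors are moderated standard errors.

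Per-array values were given for the 3 collagen genes with the smallest p in each comparison, types I, III and IV and the cartilage chains, and pathway genes were named if they passed or had one of the 2 smallest p in their list at 7 h or 25 h. Col6a3, Col15a1 and the biosynthesis and basement membrane genes named between the times were added after their values were seen. Members and lists were chosen with earlier results of these data known. Alternatives were a replicate block, 2 other filters, array weights, quantile normalization, centring on medians, robust variance estimation with an intensity trend, averaging a gene's probes, the other probe of Col6a5, the time difference within each treatment and the cartilage sum without Chad (all 3 added after seeing the data), the compared groups alone and each array left out in turn, where the array remaining in its group borrows the spread of the other groups. Tested on simulated data, the fit recovered 66% of genes changed by log2 0.5 at 7 h and 68% at 25 h. It recovered 96% between times and 12% for the difference of the effect. The simulated noise was independent between arrays, whereas the replicate differences of the real arrays were partly correlated. Other genes in the same runs were changed by up to log2 3, which eases the adjustment, whereas no real gene passed with mepenzolate. The rates may therefore be too high for these data.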

Additional observations from a re-analysis of the deposited data

Results flagged for a closer look

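For Col12a1 both mepenzolate arrays lay above both vehicle arrays at 7 h and below both at 25 h, and this opposite separation is why it is listed. The log2 difference of the mepenzolate effect, 25 h minus 7 h, was -0.52 ± 0.12, from 0.24 at 7 h and -0.28 at 25 h. The interaction was tested with limma and did not pass after Benjamini-Hochberg adjustment over all genes (adjusted p = 1). The same pattern of arrays was present in 3.52% of all genes tested.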

How the results depend on the processing

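With 2 arrays a group, differences near log2 0.5 can be missed, above all in the difference of the mepenzolate effect. The count of collagen genes that passed was 0 in all 5 comparisons under every alternative run, except between the times, where it was 1 (Col12a1) with the filter at the median level and 1 with an intensity trend and robust estimation. In the first of these fewer genes were tested, and for the second the cause was not tested. Leaving out each array in turn gave counts of 0 to 0, and medians of the collagen differences from -0.047 to 0.096 at 7 h, -0.119 to -0.019 at 25 h, -0.063 to 0.01 over both times, -0.036 to 0.024 between the times and -0.173 to -0.033 for the difference of the effect. Both extremes of the last range came from leaving out a mepenzolate array at 7 h. Replicate differences correlated across genes between vehicle and mepenzolate at 7 h (r = 0.33) and between each of these and mepenzolate at 25 h (0.194 and 0.396), and at -0.021, 0.027 and -0.013 with vehicle at 25 h. The numbers were taken as pairing the arrays only if every r was over 0.1, so they were not. The replicate block gave a count of 0 in each comparison. It could not move the medians, such as -0.046 at 25 h, because every group holds 1 array of each replicate number. The difference of the effect of Col6a5 reversed from -0.32 to 0.017 with the mean of its probes and to 0.35 with its other probe. The time difference of Col6a5 was 0.09 within vehicle lungs, reversed from that over both treatments. Leaving out 1 array reversed the time difference of Col6a5 (range -0.23 to 0.089), the average effect of Col12a1 (-0.064 to 0.02) and the 7 h differences of Lox (-0.18 to 0.29) and Tgfbr2 (-0.099 to 0.018); the cause was not tested. Ccn2 had adjusted p from 0.0155 to 0.143 under these omissions, with a difference of -0.75 to -0.58, and did not pass within vehicle (0.168) or mepenzolate lungs (0.185) alone. Of 23 single collagen gene differences 12 moved by over 1.5-fold when 1 array was left out.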
